A study of Mus musculus with 2 samples.

Results

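The cells described here are 172 mouse liver cells chosen by a rule on monocyte genes, out of 12996 cells of sufficient depth and quality and 32316 barcodes in all. A barcode was kept with at least 1000 UMIs (unique molecular identifiers, each standing for 1 captured transcript molecule) and at most 25% of its UMIs from mitochondrial genes. It was then selected on at least 4 UMIs summed over Ly6c2, Ccr2, F13a1, Chil3 and Ms4a6c, on fewer than 10 UMIs summed over the complement genes C1qa, C1qb and C1qc, and on 0 UMIs of Clec4f, Timd4, Siglech, Cd3e, Ncr1, Cd79a, Retnlg and Cxcr2. The levels of these genes therefore chose the cells and are given as a description. The label monocytes held for some of the chosen cells only. Of the 172 cells, 70 (40.7%) carried the monocyte gene Lyz2 at 10 or more UMIs and stayed under cuts on genes of other lineages, and the other 102 (59.3%) were mostly led by dendritic cell or T cell genes.

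The study sequenced 2 libraries of mouse liver cells in droplets, 1 labelled Cebp KO and 1 labelled Cebp WT, both after 2 weeks on a 40% HFCFD, a feed with much fat, fructose and cholesterol that induces steatohepatitis. In the study's knockout strains the floxed Cebpa gene is deleted by Cre driven by the albumin promoter, which is active in hepatocytes, the Cebpa fl/fl littermates serve as controls, the mice were backcrossed to C57BL/6N, and males were used. Whether the WT mouse carried the floxed alleles, the age of the mice and the number of animals behind each library were not given in the sources used here. The libraries lie in 1 matrix and are told apart only by the number that ends each barcode, suffix 1 or suffix 2, and no label ties a suffix to KO or WT. The libraries are therefore named by suffix and stand in no group, so no difference between them can be read as an effect of Cebpa. With 1 library for each label there was no replicate, and no test was made between them.

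Monocytes are made in the bone marrow, leave it through the chemokine receptor Ccr2 and circulate in a classical form with high Ly6C and a patrolling form with low Ly6C. In an injured or steatotic liver they enter the tissue and can mature into macrophages. Classical monocytes are known for lysozyme (Lyz2), the coagulation factor subunit F13a1 and the chitinase-like protein Chil3, whereas patrolling monocytes depend on Nr4a1 and carry Cx3cr1, Ace and Treml4. The liver also holds conventional dendritic cells, of which the Xcr1 type depends on Irf8 and Batf3 and the other type shares Ccr2 and several further genes with monocytes.

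Of the chosen cells, 76 had suffix 1 and 96 had suffix 2, drawn from 8320 and 4676 kept cells of 17313 and 15003 barcodes. Their median depth was 7731 and 6754 UMIs (range 2406 to 38454 and 3037 to 33351), above the 1995 and 3237 UMIs of the other kept cells, and they totalled 714948 and 815039 UMIs. A gene without a UMI in them is thus known only to lie below 4.20 and 3.68 CPM (UMIs of a gene in each 1000000 UMIs of the set), the level that 3 UMIs would give. Intervals below are exact 95% intervals for sums of UMIs or for shares of cells and cover counting error only, not the spread between mice. The 2 libraries shared 81 barcode sequences, of which 0 were chosen cells in both and 1 was a chosen cell in either. RNA of hepatocytes was present in every chosen cell, with Alb at 14 to 307 UMIs per cell in suffix 1 and 33 to 1319 in suffix 2.

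The 5 marker genes of the rule were not filled by the same cells. F13a1 (chr13:36867178-37050244, minus strand, GRCm38) had 137 UMIs with suffix 1, all of them in the Lyz2 cells, and 141 UMIs with suffix 2, of which 134 were in the Lyz2 cells. Chil3 (chr3:106147554-106167564, minus strand), with 42 and 9 UMIs, was seen in Lyz2 cells alone. Ccr2 (chr9:124101950-124113557, plus strand), by contrast, made up 78.3% and 76.8% of the marker UMIs of cells that carried Xcr1 or Clec9a, against 21.8% and 21.8% in the Lyz2 cells. Ly6c2 (chr15:75108158-75111970, minus strand) made up 58.5% and 68.1% of the marker UMIs of cells with T cell receptor genes. Ms4a6c (chr19:11469366-11482192, plus strand, overlapping the antisense gene BE692007) supplied 53.9% and 47.4% in cells with Cd209a. A single marker gene was enough for 17 and 19 of the chosen cells, and only 2 cells outside the Lyz2 cells had 4 or more of the 5 markers.

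**Figure D1:**
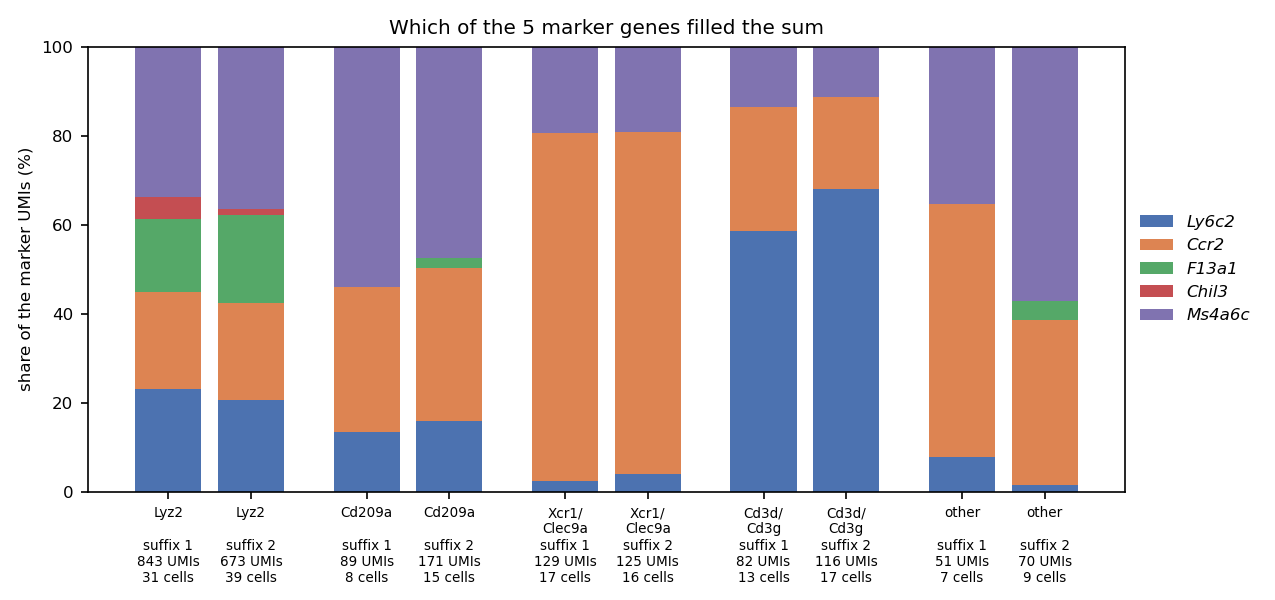
Share of the summed marker UMIs (%, vertical axis) contributed by each of the 5 rule genes, as stacked bars for the 5 groups of chosen cells in each library. F13a1 and Chil3 appear almost only in the Lyz2 cells, Ccr2 fills over 75% of the sum in the Xcr1/Clec9a cells, and Ly6c2 over 50% in the Cd3d/Cd3g cells.

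The chosen cells were sorted into 5 groups by cuts set after their values had been seen, so the genes of the cuts are no result. Cells with at least 3 UMIs summed over Cd3d, Cd3g, Trac and Trbc2 are called Cd3d/Cd3g cells and numbered 13 and 17 (17.4% of all 172). Of the remainder, those with at least 2 UMIs of Xcr1 and Clec9a are the Xcr1/Clec9a cells, 17 and 16 in number (19.2%). Those with at least 2 UMIs of Cd209a are the Cd209a cells, 8 and 15 in number (13.4%). Those with at least 10 UMIs of Lyz2 are the Lyz2 cells, 31 and 39 in number (40.8% and 40.6% of each library's chosen cells). The last 7 and 9 cells (9.30%) met none of these. Near the cuts, no cell had 2 to 4 UMIs of the T cell genes, 3 cells without the other genes had 5 to 14 UMIs of Lyz2, 7 cells had 1 UMI of Xcr1 and Clec9a, 5 had 1 UMI of Cd209a, and 7 cells passed 2 or more of the 4 cuts.

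**Figure D2:**
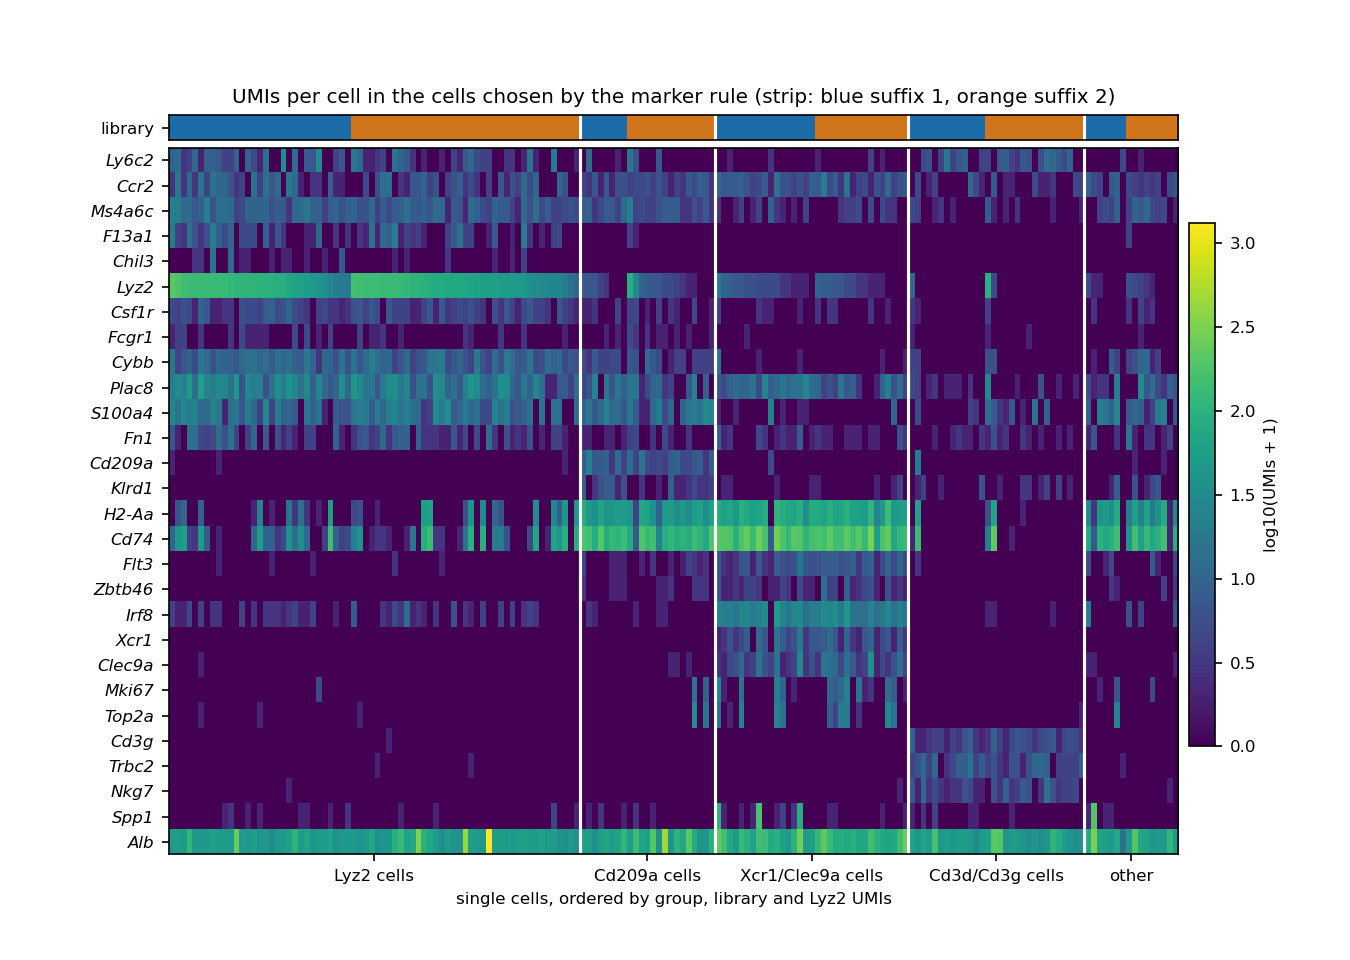
UMIs per cell, as log10(UMIs + 1) in colour, of lineage genes (rows) in each of the 172 chosen cells (columns), ordered by group, library and Lyz2 UMIs, with the library in the strip on top. Lyz2 and Plac8 fill the block of 70 Lyz2 cells, and Xcr1 lies in the block of 33 cells and most T cell gene UMIs in the block of 30, genes that set these blocks.

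The Lyz2 cells had the genes of blood monocytes. Lyz2 (chr10:117277331-117282321, minus strand), a lysozyme of monocytes, macrophages and granulocytes, ranged from 17 to 210 UMIs per cell (median 103.0) with suffix 1 and from 10 to 155 (median 69.0) with suffix 2, or 14300 and 10830 CPM over the group. The cut of 10 UMIs set the lower ends of these ranges. Plac8, a cysteine-rich protein of myeloid cells, was detected in all 31 and all 39 cells at 3411 and 2430 CPM, with 5 to 56 and 1 to 44 UMIs per cell. The calcium-binding protein gene S100a4 was at 1803 and 1804 CPM, in 29 of 31 and 35 of 39 cells. Csf1r, the receptor of the growth factor that keeps monocytes and macrophages alive, was detected in 29 and 36 cells at 538 and 456 CPM. These 4 genes were found in both libraries, with the larger values of Lyz2, Plac8 and Csf1r in suffix 1 and S100a4 level.

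Several genes that mark other myeloid cells were low or absent in the Lyz2 cells. S100a8 and S100a9, the calprotectin subunits that fill neutrophils, were at 4.89 and 0 CPM and at 0 and 7.24 CPM in the Lyz2 cells. Kept cells picked as neutrophils, with 10 or more UMIs of the pair and at least 1 of Retnlg and Cxcr2, held S100a8 at 19240 and 21316 CPM. That level follows from how the neutrophils were picked, and Retnlg and Cxcr2 were at 0 in the chosen cells by the rule. Among the cells of the rule no UMI of Ly6g, Stfa2l1, Ngp or Ltf was found, all of them genes of neutrophils or their granules. Csf3r, also on the list of neutrophil markers, had 44 and 24 UMIs in the Lyz2 cells, or 215 and 86.9 CPM. Kupffer cell markers summed to 44.0 and 29.0 CPM in the Lyz2 cells, against 1714 and 1197 CPM in cells with 10 or more C1q UMIs that met the exclusions of the rule, called C1q macrophages here. Clec4f and Timd4 were at 0 by the rule. Lyz2 itself was no mark of monocytes alone, since the C1q macrophages held 3793 and 12315 CPM. Low C1q was required by the rule, but the gap was wide: 1 and 2 of the chosen cells had 5 to 9 C1q UMIs, and no barcode that met the other conditions had 10 to 19.

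The transcription factors of the myeloid lineage were present in the Lyz2 cells. Zeb2, a zinc-finger factor of myeloid cells, was at 2141 and 2144 CPM in every cell of the group, and Spi1 (PU.1) at 665 and 561 CPM in 29 and 36 cells. Cebpb, which sustains patrolling monocytes, was at 689 and 786 CPM, against 42.3 and 36.1 CPM in the Xcr1/Clec9a cells. Irf8, the factor that favours dendritic cells, was at 191 and 210 CPM in the Lyz2 cells and at 1363 and 1390 CPM in the Xcr1/Clec9a cells. Zbtb46, a factor of conventional dendritic cells, had no UMI in any Lyz2 cell. Xcr1 had none either, but cells with at least 2 UMIs of Xcr1 and Clec9a had been placed in another group.

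**Figure D3:**
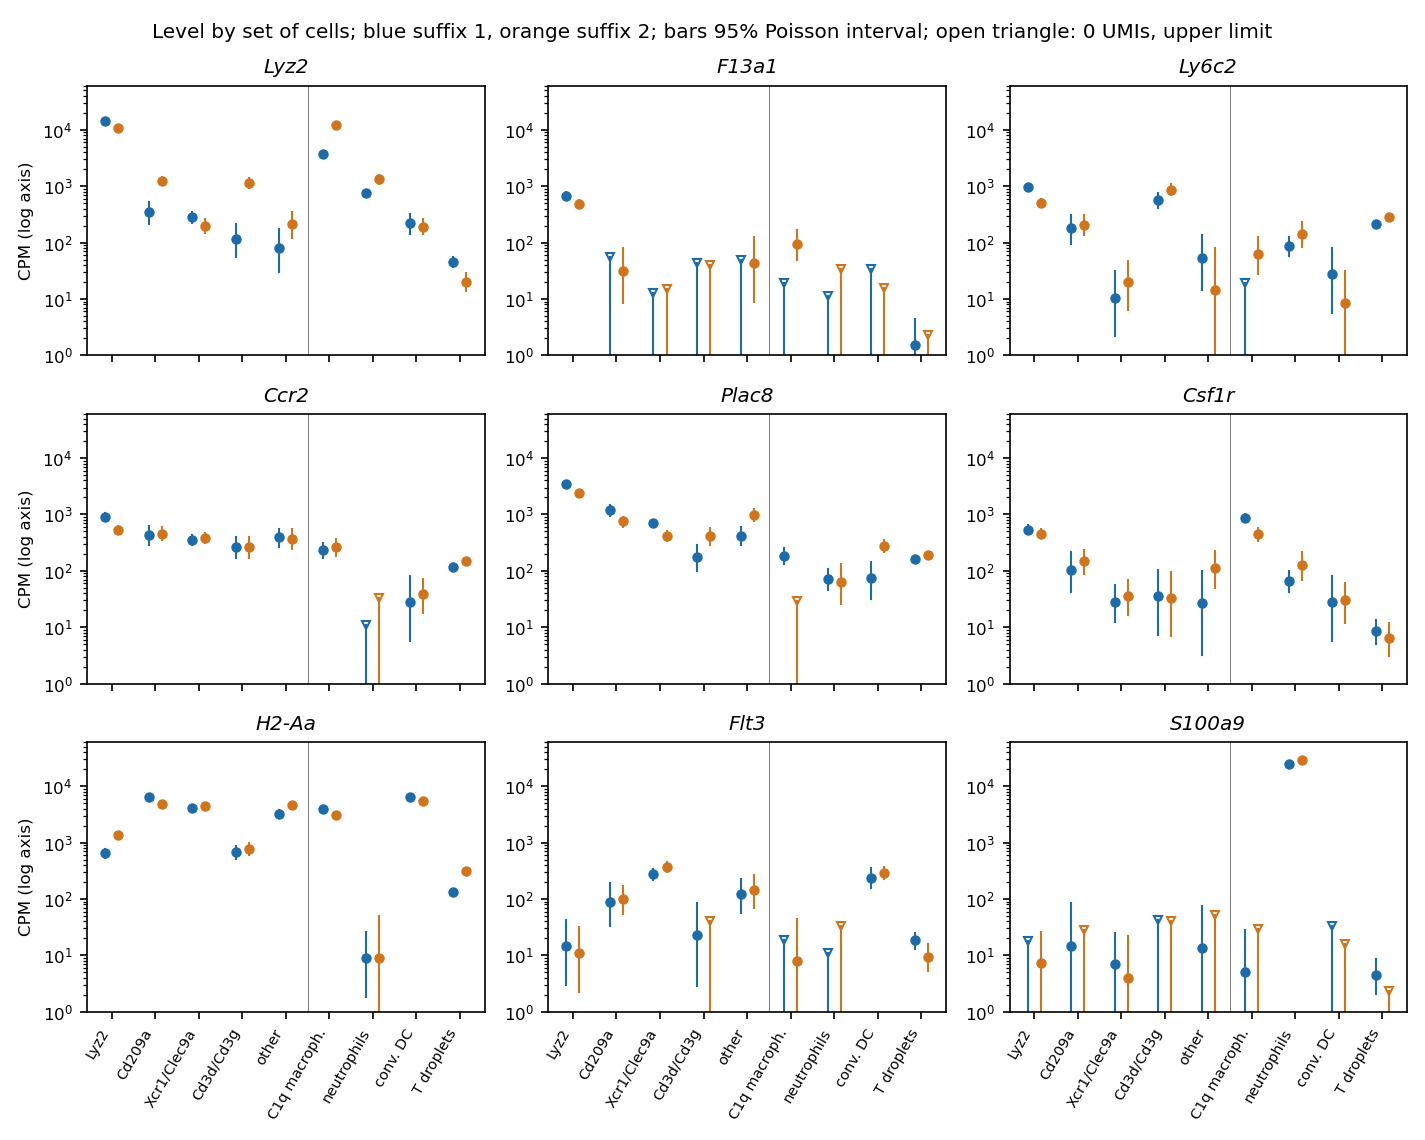
Level of lineage genes in CPM (log axis) by set of cells, for the 5 groups of chosen cells and, right of the line, other sets of kept cells, with suffix 1 in blue, suffix 2 in orange and 95% Poisson intervals as bars. Lyz2 is at 14300 and 10830 CPM in the Lyz2 cells, and open triangles mark sets with 0 UMIs at their upper limit.

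Ly6c2 varied among the Lyz2 cells. At least 3 UMIs of Ly6c2 were found in 20 and 14 cells, 1 or 2 UMIs in 3 and 12, and none in 8 and 13. Median depth was close across these classes (5856 to 6942 UMIs), and the rule itself let a cell without Ly6c2 in only through the other marker genes, so F13a1, Ccr2 and Chil3 below are not independent of the choice. With suffix 1, F13a1 was at 900 CPM (746 to 1076) in cells with at least 3 Ly6c2 UMIs and at 255 CPM (136 to 436) in cells without. With suffix 2, the levels were 457 CPM (345 to 593) with Ly6c2 and 313 CPM (205 to 459) without. The intervals were apart with suffix 1 and overlapped with suffix 2, and cells with 1 or 2 Ly6c2 UMIs did not lie between, at 197 and 738 CPM. Ccr2 was level with suffix 1, at 892 CPM with Ly6c2 and 883 CPM without, and lower with Ly6c2 in suffix 2, at 285 CPM (199 to 397) against 651 CPM (489 to 849). Chil3 was at 270 and 16.3 CPM with Ly6c2 and at 78.5 and 36.2 CPM without.

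Ace, Nr4a1 and Treml4, genes of the patrolling form, had their higher values in the cells without Ly6c2 in both libraries, with overlapping intervals. Ace, encoding angiotensin-converting enzyme, was at 75.0 and 48.9 CPM in the cells with at least 3 Ly6c2 UMIs and at 196 and 181 CPM in those without. Nr4a1, the nuclear receptor that patrolling monocytes require, was at 45.0 and 48.9 CPM in the former and 196 and 133 CPM in the latter. Treml4, a receptor of the same cells, was at 45.0 and 114 CPM against 137 and 157 CPM. These sums rest on 6 to 15 UMIs per class for Ace and 6 to 11 for Nr4a1. Cx3cr1 went the same way, from 180 and 147 CPM with Ly6c2 to 314 and 265 CPM without, also with overlapping intervals. The adhesion receptor Adgre4 went from 300 to 412 CPM with suffix 1, where the intervals overlapped, and from 236 CPM (158 to 340) to 578 CPM (427 to 767) with suffix 2, where they were apart. The integrin Itgal likewise went from 360 to 412 CPM with suffix 1, overlapping, and from 114 CPM (62.4 to 192) to 386 CPM (264 to 544) with suffix 2. The 3 and 12 cells with 1 or 2 Ly6c2 UMIs did not always lie between. With suffix 2, Ace at 28.4 CPM and Treml4 at 71.0 CPM lay below both classes, and Cx3cr1 at 383 CPM above both. Adgre4 lay above both with suffix 1, at 740 CPM. The other values of these genes, and those of Nr4a1 and Itgal, lay between. Fcgr4 had at most 4 UMIs in any of these classes. Ear2 and Spn turned between the libraries: Ear2 was at 45.0 CPM with Ly6c2 and 19.6 CPM without in suffix 1, and at 48.9 CPM (18.0 to 107) and 337 CPM (224 to 488) in suffix 2, and Spn went from 52.5 to 19.6 CPM in suffix 1 and from 48.9 to 169 CPM in suffix 2. H2-Aa was carried by few cells. It was at 82.5 CPM (41.2 to 148) with Ly6c2 and 1569 CPM (1244 to 1953) without it for suffix 1, and at 921 CPM (759 to 1108) and 1567 CPM (1309 to 1860) for suffix 2. Of the UMIs without Ly6c2, 51 of 80 lay in 1 cell with suffix 1 and 107 of 130 in 2 cells with suffix 2, and with Ly6c2 in suffix 2, 99 of 113 lay in 3 cells. These intervals take no account of that spread, and 4 of 8 and 8 of 13 cells without Ly6c2 had no H2-Aa UMI. Without its highest cell the level without Ly6c2 was 661 CPM for suffix 1 and 902 CPM for suffix 2. With Ly6c2 the H2-Aa level was then 47.4 and 606 CPM. Cells with 1 or 2 Ly6c2 UMIs held more, at 2022 and 1845 CPM, or 1220 and 1211 CPM without their highest cell. Ly6c1, the paralog of Ly6c2 whose last 300 transcript bases are 93.5% identical, had no UMI in any Lyz2 cell, although the assignment of reads between the pair is uncertain.

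The Xcr1/Clec9a cells had the genes of Xcr1-type dendritic cells. Flt3, the growth factor receptor of dendritic cells, was detected in all 17 and all 16 cells at 278 and 376 CPM, against 14.7 and 10.9 CPM in the Lyz2 cells. Naaa, a lipid amidase, was at 525 and 817 CPM, again in every cell. Id2, which dendritic and innate lymphoid lineages require, was at 1229 and 1210 CPM, Batf3 at 166 and 176 CPM, and Zbtb46 at 113 and 196 CPM. Their Lyz2 level of 285 and 200 CPM was far below the 14300 and 10830 CPM of the Lyz2 cells. They were also the deepest of the groups, with a median of 13799 and 14840 UMIs.

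Cells with both cycling genes Mki67, a proliferation marker, and Top2a, a topoisomerase, were mostly in this group. They numbered 4 of 17 and 7 of 16 there, and 14 among all 172 chosen cells, 11 of them Xcr1/Clec9a cells. No Lyz2 cell had both. The 14 cells were deep, at a median of 16857 UMIs against 7128 over all chosen cells, and the part of depth in this count was not tested.

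The Cd209a cells had the genes of the monocyte-like dendritic cells. H2-Aa, an MHC class II chain, was at 6375 and 4936 CPM and in each of the 8 and 15 cells, against 645 and 1351 CPM in the Lyz2 cells. Clec10a, a lectin of dendritic cells, was at 180 and 194 CPM, Klrd1, a lectin-like receptor also known from NK cells, at 509 and 202 CPM, and S100a4 at 1392 and 1426 CPM. Csf1r was at 105 and 147 CPM, below the 538 and 456 CPM of the Lyz2 cells. Lyz2 was at 344 and 1263 CPM, and 2 of these 23 cells had 10 or more Lyz2 UMIs.

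The Cd3d/Cd3g cells had T cell genes beyond those of the cut, although Cd3e was at 0 by the rule. Ccl5, a chemokine of effector T cells and NK cells, was at 2478 and 4021 CPM in 8 and 15 cells, and Nkg7, a granule protein of cytotoxic cells, at 491 and 731 CPM in 13 and 14 cells. Cxcr6, a receptor of liver-resident lymphocytes, was at 304 and 211 CPM. In these cells Csf1r was at 35.1 and 33.2 CPM and Spi1 at 46.8 and 77.5 CPM. Lyz2 was detected in 1 of 13 and 2 of 17 cells, and 2 of the 30 had 10 or more UMIs. Cd3d, Cd3g, Trac and Trbc2 had 1, 1, 0 and 2 cells with a UMI among the 70 Lyz2 cells.

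Against the other kept cells, 453 of 1739 tested genes (26.0%) were at least 2 times higher in the chosen cells of both libraries and 125 (7.19%) at least 2 times lower. A gene was tested where it reached 100 CPM in either library, mitochondrial and ribosomal protein genes left out, and 3 UMIs were added to each sum before a ratio was taken. The median tested gene was 1.79 and 1.40 times its level in the other cells. The floor of 100 CPM applied to the chosen cells only, so genes high in the other cells alone could not enter, and the split of higher and lower genes and the medians partly follow from it. This comparison describes cells chosen by their expression and tests nothing. By list, 15 of 25 tested classical monocyte genes outside the rule were higher and 1 was lower, 5 of 6 patrolling monocyte genes, 9 of 10 genes of class II presentation and 4 of 5 dendritic cell markers were higher, and 24 of 25 hepatocyte markers were lower. No neutrophil marker reached 100 CPM over all chosen cells, although Csf3r did in the Lyz2 cells of suffix 1.

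Outside the rule genes, the 20 genes with the largest ratios to the other kept cells came from different groups. The 4 tested rule genes, which chose the cells, were at median ratios of 18.0 and 10.9. Lyz2 stood 24.6 and 10.1 times higher and S100a4 19.4 and 16.1 times. Gpr141, an orphan receptor, was 51.6 and 29.5 times higher at 292 and 282 CPM, with 684 and 424 CPM in the Lyz2 cells, and Cx3cr1, the fractalkine receptor, was 15.1 and 18.7 times higher with 215 and 243 CPM in the Lyz2 cells. Xcr1, Naaa and Flt3 were led by the Xcr1/Clec9a cells, and Cd209a by the cells it defines. Tiam1, Havcr2, Mctp1, Ptpro, Anxa1, Ms4a4c, Olfm1, Ifi205, Ifitm6 and Grk3 completed the list beside Cxcl10 and Ifi202b. Ifi202b had 0 UMIs with suffix 2 in the chosen and in the other kept cells, so its ratio of 29.5 there came from the 3 added UMIs alone. Cxcl10, an interferon-induced chemokine, was 21.6 and 21.6 times higher, but in few cells: 6 cells held its 118 UMIs with suffix 1 and 8 its 172 UMIs with suffix 2, of which the 4 highest cells had 116 and 162.

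Beside the 26.0% of all tested genes that were higher than in the other kept cells, 14 of 19 tested chemokine and homing receptors were, among them the integrins Itgam (109 and 81.0 CPM) and Itga4 (392 and 400 CPM), the interferon-gamma receptor Ifngr1 (380 and 348 CPM) and both chains Csf2ra and Csf2rb. Ccr2, a gene of the rule, is also among the 14, and its place there follows from the choice of cells. Of 7 tested pattern and Fc receptors 4 were higher, including the signalling adapters Fcer1g (845 and 1067 CPM) and Tyrobp (1232 and 1341 CPM). Of 19 tested transcription factors 8 were higher, with Spi1 8.30 and 5.25 times and Irf8 5.20 and 3.25 times above the rest. Of 20 interferon-stimulated genes 11 were higher.

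Of the secreted inflammatory proteins some had no UMI and others were carried by some of the groups. Il6, Il10, Il12a and Il12b had no UMI in any chosen cell, nor had the chemokines Ccl7, Ccl8, Ccl12, Cxcl3 and Pf4. Ccl2, the ligand of Ccr2, had 0 and 1 UMI. Tnf had 18 and 20 UMIs in 9 and 6 cells. Ccl5, by contrast, had 226 and 375 UMIs, mostly in the Cd3d/Cd3g cells, and Ccl6, a chemokine of myeloid cells, was at 401 and 402 CPM in the Lyz2 cells. The chemokine ligands summed to 852 and 1302 CPM, against 768 and 901 CPM in the other kept cells, and 2 of the 4 tested were higher, beside 26.0% of all tested genes. Of the 4 tested cytokine and inflammation genes 1 was higher, a share near that background. It was Tgfb1, a growth factor that drives matrix production, at 175 and 196 CPM or 5.39 and 3.86 times the other kept cells. Mpo, Ctsg and Ms4a3, granule and progenitor genes of immature myeloid cells, were at 0. Of the same list, Prtn3 had 11 UMIs with suffix 1, 10 of them in 1 cell, and 1 UMI with suffix 2. Elane had 8 UMIs in 1 cell with suffix 1 and 0 with suffix 2.

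Of the genes of the C/EBP family examined, Cebpa and Cebpd lay below 100 CPM in the chosen cells and Cebpb above it. Cebpa (chr7:35119293-35121928, plus strand) had 29 UMIs in 24 of 76 cells with suffix 1 and 52 UMIs in 35 of 96 cells with suffix 2, a level of 40.6 CPM (27.2 to 58.3) for the former and 63.8 CPM (47.7 to 83.7) for the latter. The intervals overlap, and the ratio of suffix 1 to suffix 2 was 0.663 (0.389 to 1.02). The groups did not share this order: the Lyz2 cells had 17 UMIs in 13 of 31 cells and 14 UMIs in 12 of 39, or 83.1 CPM (interval 48.4 to 133) and 50.7 CPM (interval 27.7 to 85.1), and the Cd209a cells 4 and 22 UMIs. Cebpa had a UMI in 2.82% and 8.02% of B cell droplets and in 1.76% and 8.70% of T cell droplets, and the part of free RNA in the ratio was not tested. Cebpa is expressed by monocytes and by hepatocytes, and the other kept cells held 14.6 and 90.7 CPM. For Cebpb the levels were 242 CPM (interval 207 to 281) and 320 CPM (interval 283 to 362), and for Cebpd 28.0 and 34.4 CPM.

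The chosen cells of each library were split into 3 parts by the summed class II chains. The lowest part held only cells at 0 and the middle part began at 0, so cells without a class II UMI were divided between the parts. Lyz2 went from 9251 through 5468 to 356 CPM with suffix 1 and from 8102 through 4020 to 1647 CPM with suffix 2. F13a1 went from 610 to 127 to 0 CPM and from 482 to 130 to 21.4 CPM. Flt3 went the other way, from 17.3 to 136 to 212 CPM and from 14.9 to 126 to 247 CPM. The make-up changed with it: the highest part held 1 Lyz2 cell and 13 Xcr1/Clec9a cells with suffix 1, and 7 and 10 with suffix 2, while the middle held 15 and 12 Lyz2 cells and the lowest 15 and 20, beside 10 and 12 Cd3d/Cd3g cells.

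Between the libraries, the chosen cells made up 0.914% (0.720 to 1.14) of kept cells with suffix 1 and 2.05% (1.67 to 2.50) with suffix 2. The intervals do not overlap, but the kept cells were of different make-up and depth. Per 100 kept cells with B or T cell genes there were 14.7 chosen cells with suffix 1 and 21.9 with suffix 2, and 5.99 and 8.90 Lyz2 cells. Each of the 5 groups took a share of the chosen cells whose intervals overlapped between the libraries. Cells of the liver and cells recovered from it cannot be told apart in these shares.

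Over all chosen cells, 17 of 1739 genes (0.978%) were at least 2 times higher with suffix 1 and 42 (2.42%) with suffix 2, where the median ratio of suffix 1 to suffix 2 was 1.05. Of these, 14 and 14 were at 2 or more times the lower of the mean UMIs per droplet in cells with B or T cell genes, a measure of free RNA. The rule genes Ly6c2 (1.19), Ccr2 (1.19), F13a1 (1.11) and Ms4a6c (1.10) and the 25 classical monocyte genes, at a median of 1.01, were close to the median gene. Chil3 had 42 UMIs in 12 cells with suffix 1 and 9 UMIs in 6 cells with suffix 2, a ratio of 4.28 (2.55 to 12.4), and stayed under 100 CPM in both.

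**Figure D4:**
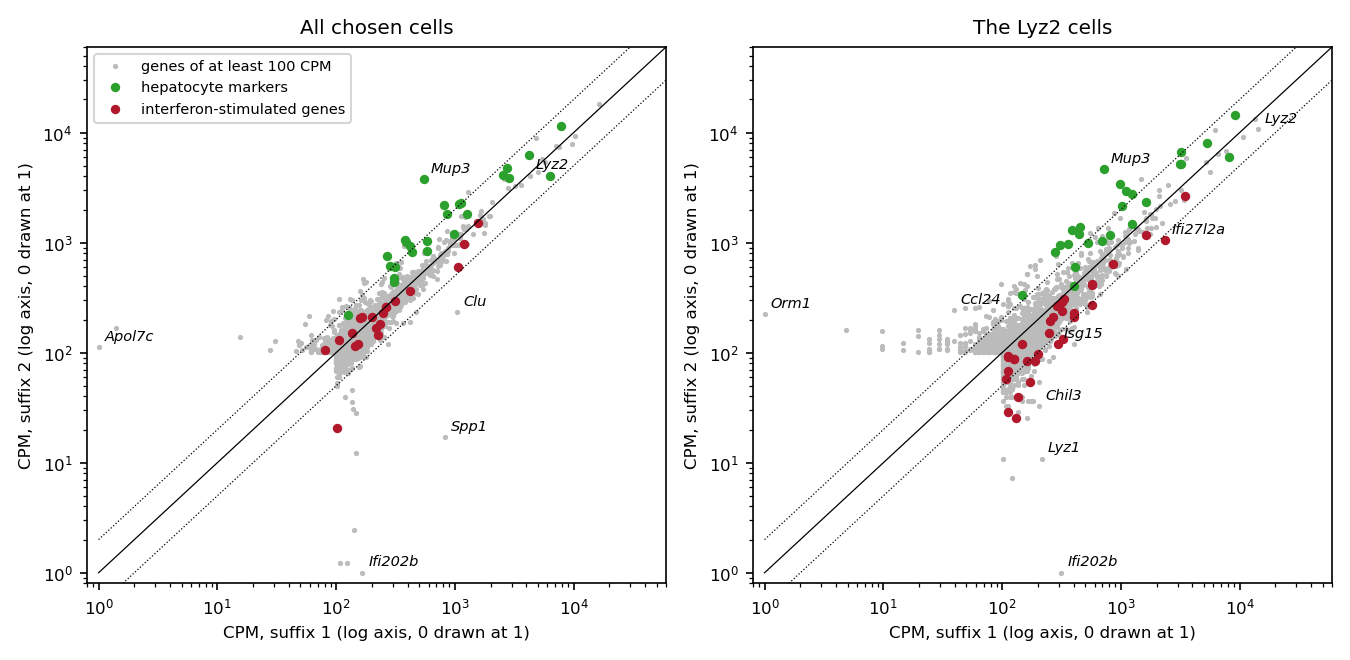
CPM with suffix 2 against CPM with suffix 1 (log axes, 0 drawn at 1) for genes of at least 100 CPM, over all chosen cells and over the Lyz2 cells alone, with interferon-stimulated genes and hepatocyte markers in colour. In the Lyz2 cells all 32 tested interferon-stimulated genes lie on the side of suffix 1, and 13 of 25 hepatocyte markers pass 2-fold on the side of suffix 2, against 29 of 33 and 1 of 25 without 3 cells of each library.

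Ifi202b, an interferon-inducible gene, was present in 1 library only. It had 118 UMIs in 41 of 76 chosen cells with suffix 1 and none in 96 cells with suffix 2, and was thus at least 44.8-fold higher against the floor of 3 UMIs. The same held over all kept cells, with 605 UMIs against 0, at least 129-fold. In suffix 1 its level was 313 CPM in the Lyz2 cells, 269 CPM in the Cd209a cells, 88.1 CPM in the Xcr1/Clec9a cells and 108 CPM in the C1q macrophages, against 3.01 CPM in neutrophils and 4.16 CPM in B cell droplets. The gene is 1 of a family of near-identical copies, so the assignment of reads among copies is uncertain. Why 1 library held no UMI of it was not tested.

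Spp1 (chr5:104435118-104441050, plus strand), encoding osteopontin, a secreted protein of bile duct cells and activated macrophages and a gene the study follows, had 589 UMIs in 29 of 76 cells with suffix 1 and 14 UMIs in 11 of 96 cells with suffix 2, or 824 CPM (759 to 893) and 17.2 CPM (9.39 to 28.8). Of the 589 UMIs, 555 lay in 4 cells, with 193, 172, 103 and 87 UMIs. No Lyz2 cell was among them: 3 were Xcr1/Clec9a cells and 1 met no cut. They also carried the bile duct genes Epcam (8, 3, 6 and 8 UMIs), Sox9 (14, 18, 3 and 8) and Tm4sf4 (20, 17, 10 and 40), and had 18077, 22680, 38454 and 31925 UMIs in all. Whether they were 2 cells in 1 droplet was not tested.

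Without those 4 cells Spp1 was at 56.3 CPM (39.0 to 78.7) in 25 of 72 cells with suffix 1. In the Lyz2 cells it had 10 UMIs in 8 of 31 cells and 6 UMIs in 4 of 39, no more than 3 UMIs in any cell. The share of chosen cells with a Spp1 UMI, 38.2% and 11.5% at a median of 7731 and 6754 UMIs, stood beside 41.2% and 8.02% in B cell droplets, which should lack the gene, at 3833 and 3356 UMIs. The depths differed, and the part of free RNA was not tested. After thinning each cell to 1000 UMIs, the shares were 14.5% and 1.04% in the chosen cells and 7.91% and 1.24% in the B cell droplets, with overlapping intervals in each library. Receptors of osteopontin were found in both libraries, with Cd44 at 239 and 268 CPM, Itga4 at 392 and 400 CPM, Itgb1 at 236 and 233 CPM and Itgav at 132 and 102 CPM.

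The same 4 cells held most UMIs of other genes that were higher with suffix 1, many of them known from epithelia. All 101 UMIs of Erbb4 and all 77 of Bicc1 with suffix 1 lay in them, and 87 of 88 of Pkhd1, 104 of 105 of Magi1, 87 of 98 of Tm4sf4 and 638 of 747 of Clu, clusterin. Without them 10 genes were at least 2 times higher with suffix 1, of which 6 were also among the 17. Ifitm1 had 73 UMIs in 2 cells, 72 of them in 1. Il7r, the interleukin 7 receptor of lymphocytes, had 100 UMIs in 13 cells and none in the Lyz2 cells of that library. Arhgap6 (137 and 45.4 CPM) and Rora (119 and 39.3 CPM) had UMIs in 16 and 15 cells with suffix 1, with 59 of 98 and 54 of 85 UMIs in those 4 cells.

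Among the genes higher with suffix 2, 2.42% of those tested, were 10 of 25 hepatocyte markers. Of the 12 largest differences above free RNA, Sds, Serpina1a, Asl, Acaa1b, Igf1, Ddt, Rida, Mettl7b, Uox and Hpd are known from hepatocytes, Apol7c rested on 91 UMIs in 1 cell, and Cacnb2 on 87 UMIs in 10 cells, 53 of them in 1. Serpina1a, an antitrypsin, had 267 CPM (interval 231 to 308) with suffix 1 and 750 CPM (interval 691 to 812) with suffix 2. Its ratio of suffix 1 to suffix 2 was 0.360 in the chosen cells, 0.629 in the other kept cells and 0.682 in B cell droplets, below 1 in all of them. Igf1, Ddt, Rida, Mettl7b and Hpd were also below 1 in each of these sets. Sds, however, was at 1.10 in the other kept cells and 1.12 in B cell droplets, and Uox at 1.13 and 1.18. Acaa1b was above 1 in the other kept cells only (1.145) and Asl in B cell droplets only (1.02). The hepatocyte markers summed to 37541 and 58611 CPM in the chosen cells, but their median per cell was 38100 and 44082 CPM, and single cells reached 151074 and 206770 CPM. The part of hepatocyte RNA in the other differences was not tested.

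Among the Lyz2 cells alone, 81 of 1931 tested genes (4.19%) were at least 2 times higher with suffix 1 and 107 (5.54%) with suffix 2, of which 3 and 34 were also in the counts over all chosen cells. These sums rest on 204620 and 276077 UMIs from 31 and 39 cells, with a median ratio of 1.12 and 1202 of 1931 genes above 1. Without the 3 Lyz2 cells of each library with the highest share of hepatocyte marker UMIs, a step chosen after values were seen, 66 and 49 of 1991 genes were called, of which 49 and 23 were among the 81 and 107, and the median ratio was 1.05. All 32 tested interferon-stimulated genes were above 1, with a median ratio of 1.52, and 9 passed 2-fold. Without those cells 29 of 33 were above 1, with a median of 1.24, and 6 passed 2-fold. Rsad2, an antiviral enzyme, was at 132 and 25.4 CPM, Isg15, a ubiquitin-like modifier, at 293 and 120 CPM, and Ifi27l2a at 2365 and 1050 CPM. Irf7, Ifih1, Stat2, Gbp7 and Ms4a4c were among the others.

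The interferon-stimulated genes overlapped widely between single cells of the 2 libraries. Their sum was 16440 and 10635 CPM over the Lyz2 cells, with 5173 to 67879 CPM per cell (median 14463) for suffix 1 and 2383 to 43750 CPM (median 10549) for suffix 2, and 24 of the 31 suffix 1 cells lay above the suffix 2 median. The sums were also higher with suffix 1 in T cell droplets (5291 and 4723 CPM), B cell droplets (4626 and 3592 CPM), C1q macrophages (9830 and 8984 CPM) and neutrophils (9692 and 6665 CPM), but not in the Cd3d/Cd3g cells (5132 and 5816 CPM). Over all chosen cells the list had a median ratio of 1.08 among 20 tested genes, close to the 1.05 of all genes.

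**Figure D5:**
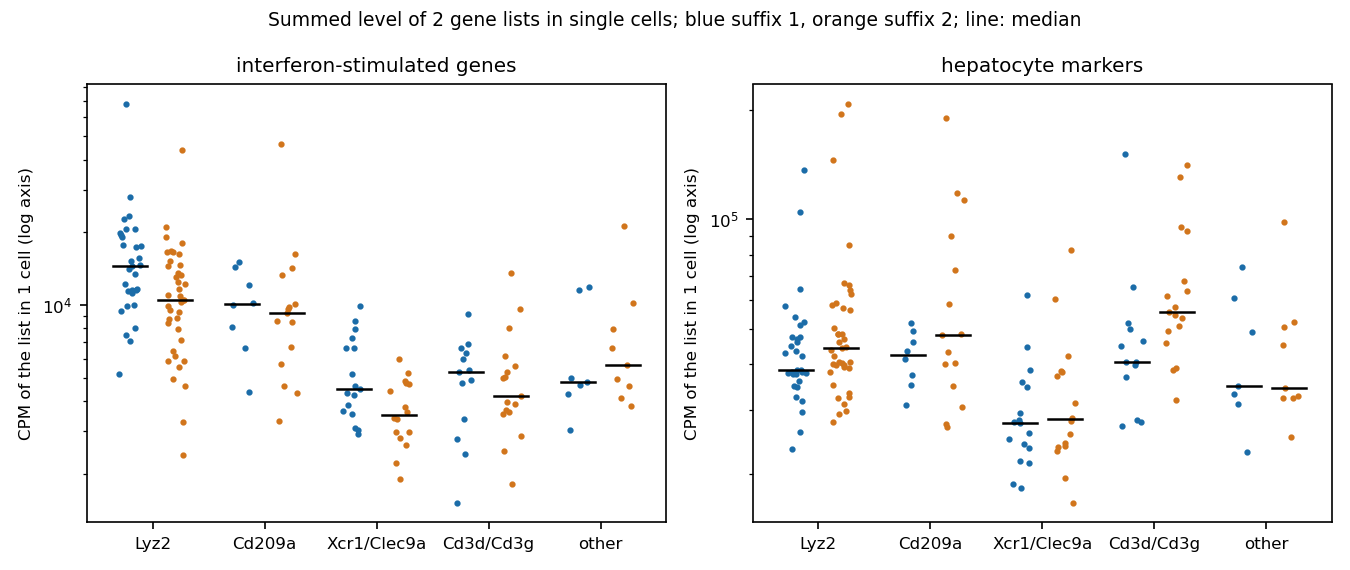
Summed CPM of 2 gene lists in each chosen cell (log axis; 1 point per cell, line at the median) by group, with suffix 1 in blue and suffix 2 in orange. For interferon-stimulated genes the Lyz2 cells of suffix 1 have a median of 14463 CPM and those of suffix 2 of 10549 CPM, with overlapping ranges.

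Genes of classical monocytes were also among those higher with suffix 1 in the Lyz2 cells. Chil3 was at 205 and 32.6 CPM, Vcan (versican, a matrix proteoglycan) at 181 and 36.2 CPM, and Fcgr1 (the high-affinity IgG receptor) at 152 and 58.0 CPM. Lyz1, a close copy of Lyz2, was at 215 and 10.9 CPM, and how reads were divided between the pair is uncertain. The share of Lyz2 cells with at least 3 Ly6c2 UMIs, 20 of 31 and 14 of 39, differed in the same direction. Ly6c2 and Chil3 are marker genes of the rule, so both are a description of the chosen cells and support nothing. Whether these differences follow from that mix was not tested.

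With suffix 2 hepatocyte markers and several single genes were higher in the Lyz2 cells. Beside the 5.54% of all tested genes called in this direction, 13 of 25 hepatocyte markers passed 2-fold, Mup3 at 728 and 4644 CPM, and their sum was 45255 and 76475 CPM with a median per cell of 38462 and 44324 CPM. A few cells carried much of this: the 3 cells with the highest share held 11465 of 21113 hepatocyte marker UMIs with suffix 2 and 1781 of 9260 with suffix 1. Without them the sums were 39634 and 44610 CPM, and 1 of 25 markers passed 2-fold. Of the 9 tested macrophage genes 1 was called in each direction, Fcgr1 with suffix 1 and Nr1h3 with suffix 2, beside 4.19% and 5.54% of all tested genes. Ccl24, a chemokine for eosinophils, was at 39.1 and 243 CPM, and of its 72 UMIs among all chosen cells of suffix 2, 44 lay in 1 cell. Ear2, a ribonuclease of patrolling monocytes and eosinophils, was at 34.2 and 134 CPM, Il1b, encoding interleukin 1 beta, at 34.2 and 127 CPM, and Nr1h3, the lipid-sensing receptor LXR alpha, at 34.2 and 123 CPM. H2-Aa was at 645 and 1351 CPM, carried by 12 of 31 and 15 of 39 cells.

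Just inside the threshold of the rule, 12 and 15 cells had exactly 4 marker UMIs. Of these, 2 and 1 had 10 or more Lyz2 UMIs, and 6 and 6 had at least 3 UMIs of the T cell genes. Just outside it, 17 and 14 cells had 3 marker UMIs and met every other condition, with 10 or more Lyz2 UMIs in 1 and 3 and T cell genes in 7 and 8. The edge of the rule was thus filled by cells other than Lyz2 cells on both sides.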

How the data were processed

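In 2 libraries, labelled Cebp KO and Cebp WT, mouse liver cells were measured by droplet single-cell RNA sequencing. The authors deposited 1 filtered matrix of UMI counts, 32285 genes by 32316 barcodes, and per the submitters' processing notes used Cell Ranger 7.1.0, STAR 2.7.2a and bcl2fastq 2.20.0 with mm10. The values are raw counts without normalization or annotation of cells.

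UMIs were summed per library over the chosen cells and divided by their total (CPM), in Python 3.11.15 with numpy 2.4.6, scipy 1.17.1 and pandas 2.3.3. Intervals were exact Poisson, Clopper-Pearson or, for ratios, conditional binomial at 95%. With 1 library per label and no label for the suffixes, no test was run, and a gene was called at 2-fold after 3 UMIs were added to each sum, with at least 100 CPM in either library. The calling step was first run on simulated counts. Of the gene lists, 5 symbols (Ly6a2, Cd43, Clec7a, Mx1 and Mx2) were not found under these names. Coordinates are GENCODE M21 on GRCm38, in which 32158 gene IDs were found.

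The members and lists were chosen with earlier results of these data known. Genes were named by fixed rules: from each list the 4 of highest CPM and any at 0, the 12 largest ratios each way between libraries among genes above free RNA, the 20 largest ratios to the other kept cells outside the rule genes, and Spp1, its receptors, Cebpa, Cebpb and Cebpd. Other genes named, the 5 groups of cells, their cuts and the genes described for each group were chosen after values were seen. No doublet caller was run, and leaving out cells with genes of another lineage was an alternative. Further alternatives changed the UMI minimum, the mitochondrial limit, the marker conditions, the CPM floor, the fold, the averaging, the depth and the free RNA.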

Additional observations from a re-analysis of the deposited data

Results flagged for a closer look

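Barcodes left out by the mitochondrial limit also met the marker conditions. With more than 25% of UMIs from mitochondrial genes, 8 barcodes of 5034 with suffix 1 and 8 of 8719 with suffix 2 did so, at a median of 36.9% and 32.5% mitochondrial UMIs. Of these, 0 and 3 had 10 or more Lyz2 UMIs, and 0 and 2 had at least 3 UMIs of the T cell genes. No control sample bears on them, and among barcodes of 500 to under 1000 UMIs none met the marker conditions.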

How the results depend on the processing

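No paired analysis was possible because the suffixes have no sample label and each label has 1 library. The share of chosen cells among kept cells, 0.914% and 2.05%, moved to 0.654% and 1.58% at a minimum of 500 UMIs, 1.81% and 2.91% at 2000, 0.709% and 1.58% with a marker sum of at least 6, 0.709% and 1.65% with 2 markers detected, 0.661% and 1.52% without cells of other lineage genes and 0.373% and 0.834% for the Lyz2 cells, and with suffix 2 to 1.24% at a mitochondrial limit of 50%. It was larger with suffix 2 under each of these for which both values moved.

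The counts of genes 2 times higher with suffix 1 and suffix 2, 17 and 42, moved to 11 and 19 with the mean of per-cell CPM, 112 and 143 with free RNA subtracted, 145 and 64 after thinning, 77 and 93 at 50 CPM, 846 and 412 without a floor, 11 and 8 at 3-fold and 81 and 107 for the Lyz2 cells. For suffix 1 alone the count moved to 35 without cells of other lineage genes, 4 at 200 CPM and 10 without the 4 cells of most Spp1, and for suffix 2 alone to 15 with a marker sum of at least 3 and 75 with at least 6. Which library had more genes thus turned after thinning, without a floor, at 3-fold and with a marker sum of at least 3, where suffix 1 kept a count of 17. The count against the other kept cells, 453, moved to 769 at 50 CPM, 5100 without a floor, 209 at 200 CPM and 206 at 3-fold. Without a floor the 3 added UMIs alone put genes above 2-fold, since the totals of the sets differ: 2685 of the 5100 had at most 3 UMIs in the chosen cells of each library. With no UMIs added and the floor kept the count was 429. In the Lyz2 cells, leaving out the 3 cells of highest hepatocyte marker share in each library moved the count for suffix 2 from 107 to 49.

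Of the ratios of suffix 1 to suffix 2 of the 24 named genes, 7 turned in the Lyz2 cells, with Erbb4 and Rora at 0.810, Clu at 0.601, Il7r at 0.405, Tm4sf4 at 0.422, and Apol7c and Cacnb2 at 1.35. Of these, Apol7c and Cacnb2 had 0 UMIs in the Lyz2 cells of both libraries, so 1.35 is only the ratio of the totals under the added UMIs, and Erbb4 rested on 0 and 2 UMIs, Rora on 3 and 7, Il7r on 0 and 7 and Tm4sf4 on 2 and 13. Without the 4 cells of most Spp1, Erbb4 was at 0.776, Bicc1 at 0.970, Magi1 at 0.398, Clu at 0.766 and Tm4sf4 at 0.584. Ifitm1 turned to 0.714 with 2 markers detected, Il7r to 0.856 without cells of other lineage genes and Mettl7b to 1.12 after thinning. The Lyz2 cells and the removals of cells were chosen after seeing the data. The causes were not tested. Of 5486 values of CPM of named genes under the other settings, 4347 stayed within the counting interval. Depth limits every gene below about 4 CPM in the chosen cells.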
